A study of Mus musculus with 27 samples.

Results

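DNA methylation was measured around 8 mouse genes of the trophoblast and placenta. Of these, 3 encode trophoblast transcription factors (Elf5, Cdx2 and Ascl2), and 5 encode products of differentiated placenta (Tpbpa, Tpbpb, Prl3d1, Prl3b1 and Prl2c2). Each gene was taken as its GRCm38 body with 10 kb on either side, and its value was the mean of all deposited windows touching that stretch. The 8 genes covered 57 of the 444250 nuclear windows measured in all libraries, no window was shared between them, and 49045 genes in all were measured in the same way. The 8 genes were listed by name, with earlier results of these data known.

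The cells were mouse embryonic stem cells kept in 2i and LIF, which hold them in a naive state (D0), and epiblast-like cells derived from them after 1 and 2 days (D1 and D2). The line TET_KO lacks Tet1, Tet2 and Tet3, and TET_WT is its wild-type parent. DNMT_WT is a wild-type line too, the parent of a Dnmt1, Dnmt3a and Dnmt3b knockout line that is not used here. There were 3 libraries for each line and day, which gave 9 groups and 27 libraries. The labels do not say that the 3 libraries came from separate cultures, so the p-values speak of the spread over these libraries, which may be technical. With 1 line per genotype, the Tet deletions and any other difference between the lines cannot be told apart. The file holds methylation only, so neither the deletions nor the cell types could be checked by expression.

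The trophoblast is the first lineage set aside in the mouse embryo and builds the fetal part of the placenta, whereas embryonic stem cells and epiblast-like cells stand for the embryo proper. Cdx2 starts the trophectoderm programme. In mouse, the Elf5 promoter is known to be methylated in embryonic stem cells and unmethylated in trophoblast stem cells. Ascl2 is an imprinted basic helix-loop-helix factor needed for the spongiotrophoblast, which Tpbpa marks. Prl3d1 and Prl3b1 are the placental lactogens, hormones of the prolactin family secreted by trophoblast giant cells, and Prl2c2 is proliferin, another member of that family. Cytosine methylation is laid down by the Dnmt3 enzymes as naive cells move towards the epiblast state and is oxidised by the Tet enzymes. Bisulfite treatment reads methylated and hydroxymethylated cytosine alike.

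Values are percent methylation of CpGs as deposited. The windows are named for 100 CpGs, so a long window is poor in CpGs and a short window is rich in them. The deposited table holds no counts, so depth could not be judged and counting intervals are left out. The mean of all genes in a library lay between 48.0 and 68.2% in TET_KO, between 2.94 and 48.0% in DNMT_WT and between 23.0 and 52.6% in TET_WT. In TET_WT, replicate 2 stood apart. It had 29.1% on D1, against 31.95 and 31.93% in its group, and 52.6% on D2, against 48.9 and 47.8%.

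The 8 genes differ in how CpGs are spread over them. Elf5 (chr2:103412098-103450989, plus strand) had 16 windows of 2100 to 5876 bp, and Cdx2 (chr5:147300900-147307249, minus strand) had 15 windows of 601 to 3952 bp. Ascl2 (chr7:142966822-142969264, minus strand) had 8 windows of 487 to 7496 bp. The placental genes all lie on chromosome 13 and had 3 to 5 windows each: Tpbpa at chr13:60938492-60941936, Tpbpb at chr13:60901295-60904847, Prl3d1 at chr13:27094189-27100260, Prl3b1 at chr13:27242430-27249683 and Prl2c2 at chr13:12996120-13005393. The median window was 9672 bp for the placental genes and 2828 bp for the transcription factors. Windows of the flanks also hold neighbours, namely Cat beside Elf5, Gm35112 and Urad beside Cdx2, Ctla2a and Gm40976 beside Tpbpa, Ctla2b beside Tpbpb and Prl3a1 beside Prl3b1. Prl2c2 has near-identical copies in the mouse genome, and how reads of such copies were assigned is not given in the sources used here, so its values are uncertain. Read placement is not given for the other prolactin genes either. Whether reads of Prl3d1 could be told from those of relatives such as Prl3d2 was not tested.

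The 250 bases before the annotated starts held more CpGs in Cdx2 and Ascl2 than in the placental genes or at the first Elf5 start. They are printed 5′ to 3′ on the gene's strand, from RefSeq on GRCm38.p6, with each CpG in capitals. They were chosen because the profile of Elf5, the unmethylated cores of Cdx2 and Ascl2 and the long windows of the placental genes are described below. The Cdx2 stretch lies outside the core windows of its gene. The Ascl2 stretch lies partly in a core window and partly in the flank window before it. The motif is the dinucleotide CG, which reads alike on both strands and does not overlap itself. A table of 32851 promoters had a median of 6 CpGs in this stretch, and 92.1% had at least 1. Ascl2 had 19, Cdx2 13, the first start of Elf5 2 and its second start 8. The counts were 2 for Tpbpa, 1 for Tpbpb, 3 for Prl3d1 and 1 for Prl3b1, and 81.2% of all promoters had at least 2. Prl2c2 was not matched.
Ascl2, chr7:142969265-142969514, minus: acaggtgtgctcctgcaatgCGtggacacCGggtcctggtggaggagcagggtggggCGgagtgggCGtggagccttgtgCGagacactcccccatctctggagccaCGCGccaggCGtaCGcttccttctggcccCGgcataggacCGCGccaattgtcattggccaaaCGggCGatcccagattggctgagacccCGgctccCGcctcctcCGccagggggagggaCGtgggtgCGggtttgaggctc
Cdx2, chr5:147307250-147307499, minus: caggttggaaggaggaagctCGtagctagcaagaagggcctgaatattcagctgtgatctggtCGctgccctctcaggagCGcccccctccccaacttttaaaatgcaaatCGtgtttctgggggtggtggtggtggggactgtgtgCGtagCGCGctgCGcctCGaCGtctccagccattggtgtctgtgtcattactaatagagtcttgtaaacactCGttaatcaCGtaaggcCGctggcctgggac
Elf5, start 1, chr2:103411848-103412097, plus: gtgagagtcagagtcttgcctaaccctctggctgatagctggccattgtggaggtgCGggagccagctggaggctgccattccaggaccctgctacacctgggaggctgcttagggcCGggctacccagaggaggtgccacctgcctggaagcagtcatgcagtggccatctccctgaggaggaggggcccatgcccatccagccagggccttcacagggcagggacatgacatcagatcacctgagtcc
Elf5, start 2, chr2:103423818-103424067, plus: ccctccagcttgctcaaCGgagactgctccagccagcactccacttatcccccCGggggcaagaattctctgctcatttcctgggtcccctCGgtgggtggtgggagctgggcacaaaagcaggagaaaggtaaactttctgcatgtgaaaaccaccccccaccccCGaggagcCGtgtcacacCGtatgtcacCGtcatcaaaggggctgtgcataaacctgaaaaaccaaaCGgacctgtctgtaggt
Prl3d1, chr13:27093939-27094188, plus: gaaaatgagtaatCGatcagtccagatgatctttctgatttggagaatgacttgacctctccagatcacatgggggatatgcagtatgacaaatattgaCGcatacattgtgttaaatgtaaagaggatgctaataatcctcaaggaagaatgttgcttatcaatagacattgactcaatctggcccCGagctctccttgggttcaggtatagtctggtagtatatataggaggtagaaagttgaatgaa
Tpbpa, chr13:60941937-60942186, minus: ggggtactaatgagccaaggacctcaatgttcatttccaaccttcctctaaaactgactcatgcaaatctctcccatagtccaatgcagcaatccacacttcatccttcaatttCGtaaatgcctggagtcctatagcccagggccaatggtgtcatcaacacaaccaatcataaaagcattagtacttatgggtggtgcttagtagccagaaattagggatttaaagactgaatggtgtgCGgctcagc
Tpbpb, chr13:60904848-60905097, minus: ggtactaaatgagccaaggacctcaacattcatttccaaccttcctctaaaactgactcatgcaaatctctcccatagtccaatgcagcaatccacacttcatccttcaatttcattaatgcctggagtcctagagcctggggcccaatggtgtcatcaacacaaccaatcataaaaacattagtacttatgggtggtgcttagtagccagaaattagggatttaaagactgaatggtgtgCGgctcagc
The Tpbpa and Tpbpb stretches were alike at 240 of 252 aligned columns (95.2%), so reads of these neighbouring genes may be hard to place apart, which was not tested.

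Elf5 was methylated along its whole length and stood above the median of all genes in every group. In TET_KO it read 59.0, 56.3 and 61.2% on D0, 65.7, 67.6 and 68.5% on D1 and 78.7, 79.4 and 76.9% on D2. In DNMT_WT it read 4.04, 4.53 and 4.45% on D0, 20.9, 19.4 and 21.9% on D1 and 62.9, 64.7 and 62.7% on D2. In TET_WT it read 29.4, 30.0 and 29.4% on D0, 40.0, 37.0 and 39.8% on D1 and 63.4, 68.0 and 62.6% on D2. No TET_KO library overlapped a TET_WT library of the same day, and the 2 wild-type lines overlapped on D2 only. The 16 Elf5 windows ranged from 44.98 to 68.7% in TET_KO, from 1.61 to 12.5% in DNMT_WT and from 18.1 to 45.4% in TET_WT on D0. On D2 they ranged from 63.5 to 87.2%, from 46.4 to 74.9% and from 49.9 to 77.8% in the same lines. Neither window with a start was the lowest of the 16 in any line on D0 or D2. These 2 windows are 5049 and 2321 bp long, so a short dip at a start could not be seen. On D0 the window with the first start had 61.0 ± 2.87% in TET_KO and 30.0 ± 0.434% in TET_WT (SD, n = 3 each). The window with the second start had 60.7 ± 2.54% in TET_KO and 29.1 ± 1.74% in TET_WT (SD, n = 3 each). On D2 that window had 73.4% in TET_KO, 57.8% in DNMT_WT and 57.2% in TET_WT. The window before it had 85.7, 74.9 and 73.7% in the same lines, and the window after it 77.6, 58.5 and 59.1%.

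Cdx2 and Ascl2 had unmethylated cores inside methylated flanks. Cdx2 read 26.1, 25.5 and 27.9% in TET_KO on D0, against 8.28, 8.36 and 8.47% in TET_WT, and 37.2, 36.6 and 35.0% in TET_KO on D2, against 21.8, 22.9 and 21.0% in TET_WT. Ascl2 read 29.9, 29.6 and 31.4% in TET_KO on D0, against 12.2, 12.9 and 11.8% in TET_WT, and 42.1, 42.7 and 39.8% in TET_KO on D2, against 26.9, 31.4 and 26.1% in TET_WT. The TET_KO libraries lay above all TET_WT libraries of their day for each gene. These means combine unlike windows. The 4 windows of 601 to 1167 bp within the Cdx2 body had group means of at most 4.34% in any of the 9 groups, and the 3 Ascl2 windows of 487 to 636 bp at most 2.53%. In the Cdx2 window next to its start, which lies inside the body, TET_KO had 1.01 ± 0.651% and TET_WT 1.65 ± 2.36% on D2 (SD, n = 3 each). In the Ascl2 window that holds the start, TET_KO had 1.11 ± 0.303% and TET_WT 1.10 ± 0.468% on D2 (SD, n = 3 each). The difference there was 0.008 ± 0.485 points (SE) with an adjusted p of 0.988 by limma. Of the 7 core windows, the Cdx2 window at chr5:147305998-147306617 passed the adjusted p on D2, with 2.02% in TET_KO and 0.489% in TET_WT, a difference of 1.53 ± 0.467 points (adjusted p = 0.0032). The other 6 did not pass, and all 7 stayed far under 10 points.

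**Figure D1:**
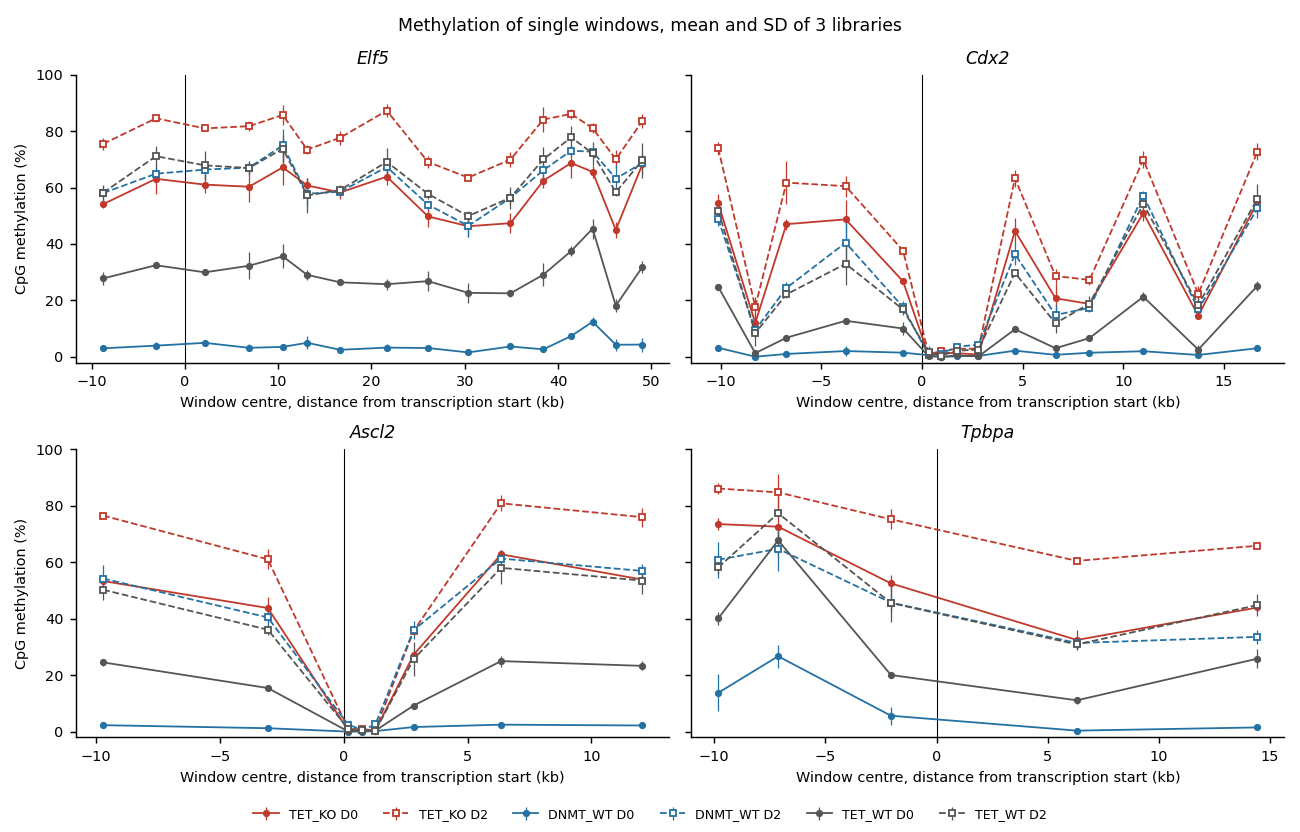
CpG methylation (%) of each window against the distance of its centre from the transcription start (kb, negative upstream) for Elf5, Cdx2, Ascl2 and Tpbpa. Points are means and bars SDs of 3 libraries, filled with solid lines for D0 and open with dashed lines for D2, in TET_KO (red), DNMT_WT (blue) and TET_WT (grey). Elf5 is methylated across its length, Cdx2 and Ascl2 drop to near 0 beside the start in every line, and Tpbpa has its highest TET_WT value about 7.13 kb upstream.

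Outside the cores, both flank and body windows of Cdx2 and Ascl2 differed between TET_KO and TET_WT. In the body of Cdx2, the window at chr5:147301395-147303856 had 63.3 ± 3.03% in TET_KO and 29.8 ± 0.490% in TET_WT on D2, a difference of 33.5 ± 2.02 points (adjusted p = 1.59e-14). The Cdx2 flank windows at chr5:147292560-147294477 and chr5:147298024-147299825 were not called on D2, with 3.91 and 8.38 points. The widest gap of the 57 windows on each day lay upstream of Cdx2 at chr5:147312915-147315048, a flank window centred 6.73 kb before the start. On D0 it read 47.0, 45.1 and 49.0% in TET_KO, 1.64, 0.675 and 0.880% in DNMT_WT and 8.01, 6.61 and 5.82% in TET_WT. On D2 it read 64.8, 67.4 and 53.0% in TET_KO, 22.9, 23.7 and 26.7% in DNMT_WT and 23.4, 22.4 and 20.6% in TET_WT. Every TET_KO library was above every wild-type library, by 40.2 ± 2.26 points over TET_WT on D0 (adjusted p = 1.82e-15) and by 39.6 ± 2.26 points on D2 (adjusted p = 5.5e-15; SE, limma over all windows). The Cdx2 window with the start, chr5:147307219-147309153, reaches upstream over the sequence printed above. It had 26.8 ± 0.637% in TET_KO, 1.52 ± 0.927% in DNMT_WT and 10.1 ± 2.31% in TET_WT on D0 (SD, n = 3 each). On D2 it had 37.7 ± 0.644% in TET_KO, 17.7 ± 2.00% in DNMT_WT and 16.8 ± 1.94% in TET_WT. TET_KO was 20.9 ± 1.33 points higher than TET_WT there (adjusted p = 4.63e-14). The window before the Ascl2 start, chr7:142969433-142975230, had 61.0 ± 3.57% in TET_KO and 36.1 ± 1.77% in TET_WT on D2, a difference of 24.9 ± 2.05 points (adjusted p = 7.96e-12).

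The placental genes with an annotated start had methylated start windows in TET_KO and TET_WT and nearly unmethylated ones in DNMT_WT on D0. On that day the windows that hold the starts of Tpbpa, Tpbpb, Prl3d1 and Prl3b1 read 52.5, 43.4, 50.5 and 43.1% in TET_KO, against 20.04, 23.7, 22.5 and 16.9% in TET_WT. In DNMT_WT they read 5.62, 1.12, 1.38 and 0.368%, and on D2 the values were 75.2, 67.3, 71.8 and 69.8% in TET_KO, 45.7, 37.5, 30.1 and 28.3% in DNMT_WT and 45.5, 45.5, 43.8 and 34.9% in TET_WT. These windows are 7600 to 11765 bp long, so a short stretch at a start could not be seen. Tpbpa held the window that was most methylated in the wild-type lines on D0. At chr13:60947789-60950339, in a flank that overlaps Gm40976, the mean was 72.6 ± 11.2% in TET_KO, 26.7 ± 4.05% in DNMT_WT and 67.7 ± 2.96% in TET_WT (SD, n = 3 each). TET_KO differed from TET_WT by 4.84 ± 5.18 points there on D0 (adjusted p = 0.367) and by 7.38 ± 5.18 points on D2 (adjusted p = 0.172). The other 17 placental windows were called higher in TET_KO on all 3 days.

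In TET_KO against TET_WT, all 8 genes were higher on every day. With body windows alone the Ascl2 gap was 4.67, 4.83 and 2.66 points from D0 to D2, under the 10 points of a call. A gene or window counts as called here at a Benjamini-Hochberg adjusted p under 0.05 over all features, by limma, with a difference of at least 10 percentage points. Nearly all genes met that rule: 99.1% of all genes were called higher on D0, 99% on D1 and 93.8% on D2. Being called is therefore nothing particular to the 8 genes. Of their windows, 49 of 57 were called higher on D0, against 92.9% of all windows. The count was 48 on D1, against 92.6% of all windows, and 43 on D2, against 84.3%. On D2, 14 windows were not called. They were the 7 cores of Cdx2 and Ascl2, 3 Cdx2 flank windows, 1 Ascl2 body window at 9.97 points, 2 of the 16 Elf5 windows and the Tpbpa window described above.

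What differed between the genes was the size of the gap and how it moved from D0 to D2. The Elf5 gap was 29.3 ± 1.30 points on D0 (adjusted p = 4.07e-19), 28.3 ± 1.30 points on D1 and 13.7 ± 1.30 points on D2 (adjusted p = 3.73e-11; SE). The Cdx2 gap was 18.1 ± 0.680, 18.3 ± 0.680 and 14.4 ± 0.680 points on the 3 days, and the Ascl2 gap was 18.02 ± 0.956, 18.9 ± 0.956 and 13.4 ± 0.956 points. For all genes the median gap was 25.9, 25.3 and 16.1 points in the same order of days. Relative to that median the D2 gaps of Elf5, Cdx2 and Ascl2 were −2.41, −1.67 and −2.69 points.

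The placental genes kept a wide gap. Prl3b1 read 71.0, 73.1 and 70.5% in TET_KO on D2, against 38.4, 43.0 and 37.9% in TET_WT. Prl3d1 read 73.2, 75.6 and 69.9% in TET_KO on D2, against 41.2, 47.3 and 40.7% in TET_WT. Prl2c2 read 65.5, 67.5 and 62.9% in TET_KO on D2, against 34.5, 39.1 and 34.8% in TET_WT. In each, the lowest TET_KO library lay more than 20 points above the highest TET_WT library. The gaps on D2 were 31.8 ± 1.24 points for Prl3b1 (adjusted p = 2.48e-19), 29.8 ± 1.33 points for Prl3d1 and 29.2 ± 1.27 points for Prl2c2. Tpbpa read 72.4, 75.4 and 75.6% in TET_KO on D2, against 50.6, 54.2 and 49.2% in TET_WT. Tpbpb read 72.1, 70.01 and 71.98% in TET_KO on D2, against 44.4, 52.8 and 45.6% in TET_WT. Neither gene's libraries overlapped between the lines, and their gaps were 23.1 ± 1.37 and 23.8 ± 1.62 points. The gap of Prl3b1 was larger than that of 97.4% of all genes, whereas on D0 its 25.7 ± 1.24 points exceeded 48.3% of them. Without TET_WT replicate 2 of D2, the D2 gaps were 33.4 points for Prl3b1, 31.9 points for Prl3d1, 30.6 points for Prl2c2 and 15.3 points for Elf5.

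**Figure D2:**
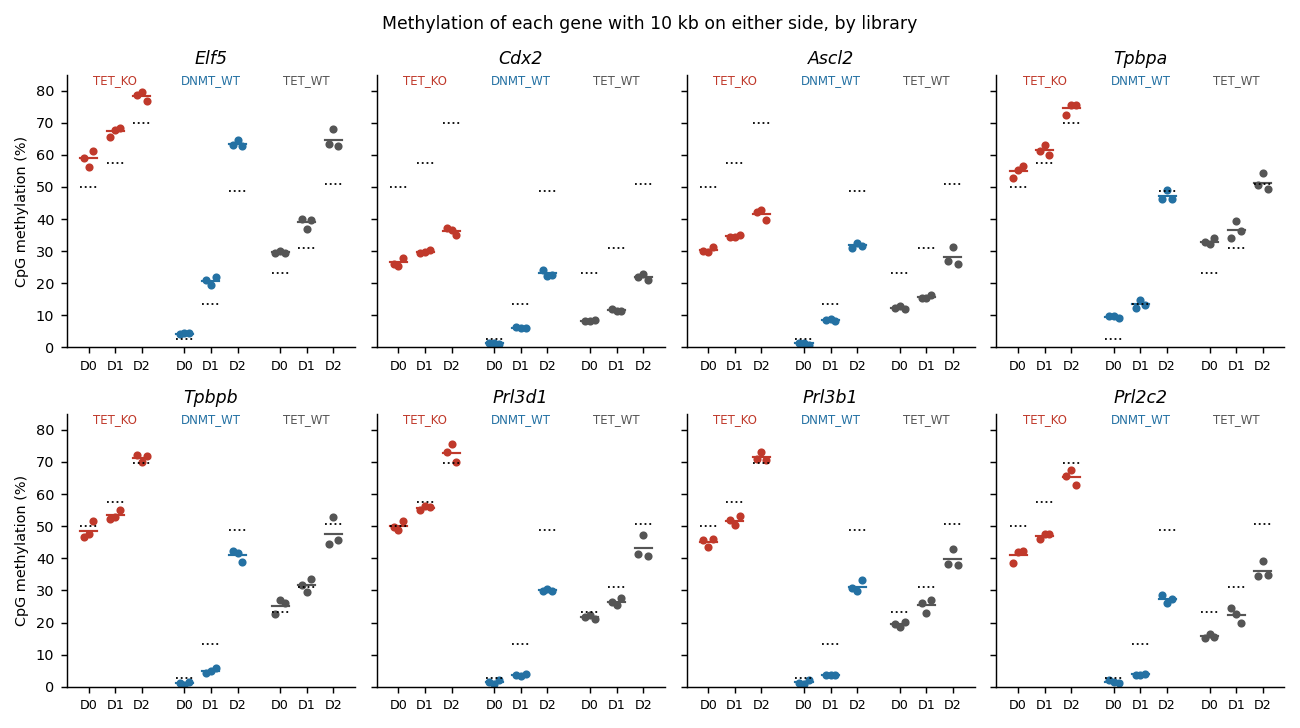
CpG methylation (%) of each gene with 10 kb on either side in all 27 libraries, by line and day. Points are single libraries, coloured bars are group means of 3 libraries, and dotted bars are the mean over the 3 libraries of the median of all genes. On D2 the TET_KO libraries lie above all libraries of both wild-type lines in each panel, and Cdx2 and Ascl2 lie below the dotted bars in every group.

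Because whole libraries differed, the same model was refitted after the median of all genes had been subtracted from each library. The library medians themselves differed by 26.9 points between TET_KO and TET_WT on D0, by 26.5 points on D1 and by 19.1 points on D2. Relative to them, Prl3b1, Prl3d1 and Prl2c2 were higher in TET_KO than in TET_WT on D2, by 12.7 ± 0.687, 10.8 ± 0.729 and 10.1 ± 1.04 points, a direction in which 5.6% of all genes were called. Tpbpa and Tpbpb had 4.04 ± 1.53 and 4.70 ± 1.19 points. Elf5, Cdx2 and Ascl2 had −5.39 ± 0.728, −4.65 ± 0.712 and −5.67 ± 0.608 points, so the sign of their difference depends on this scaling. On D0 the values relative to the library median were −8.75 points for Cdx2 and −8.87 points for Ascl2, and between −4.85 and 2.37 points for the other 6 genes.

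The difference between the gains from D0 to D2 was tested directly. The gain of Elf5 was lower in TET_KO than in TET_WT, by −15.6 ± 1.84 points (adjusted p = 2.03e-08), and 43.5% of all genes were called lower in this contrast. No other of the 8 genes was called. At any size 5 of 8 passed the adjusted p by limma, beside 83.5% of all genes in either direction. Besides Elf5, Cdx2 (−3.73 ± 0.961 points) and Ascl2 (−4.63 ± 1.35) gained less in TET_KO. Prl3b1 (6.12 ± 1.75) and Prl2c2 (3.95 ± 1.79) gained more. The placental genes had differences of 0.421 to 6.12 points, against a median of −9.11 points over all genes. Relative to the library median, Prl3b1 gained 13.9 ± 0.971 points more in TET_KO and Prl2c2 11.8 ± 1.47 points more, and 9.26% of all genes were called in that direction. A gain in points is not the same as a gain in odds: on a log2 odds scale, the differences for Tpbpb, Prl3d1 and Prl2c2 changed sign, to −0.0231, −0.0230 and −0.0982.

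Within TET_KO, most of the change came between D1 and D2. From D0 to D1 the differences ran from 3.33 ± 0.680 points for Cdx2 to 8.41 ± 1.30 points for Elf5. None of the 8 genes reached 10 points, where 2.95% of all genes did, although 8 of 8 passed both the adjusted and the unadjusted p by limma, as did 99% of all genes at the adjusted p. From D1 to D2, 6 of 8 genes rose in TET_KO by at least 10 points, beside 65.1% of all genes, and 8 of 8 passed the adjusted p at any size. Prl3b1 rose by 19.7 ± 1.24 points (adjusted p = 1.66e-13), Prl2c2 by 18.3 ± 1.27, Tpbpb by 17.98 ± 1.62, Prl3d1 by 17.2 ± 1.33, Tpbpa by 13.0 ± 1.37 and Elf5 by 11.1 ± 1.30 points. Cdx2 rose by 6.46 ± 0.680 points (adjusted p = 6.52e-10) and Ascl2 by 6.89 ± 0.956 points (adjusted p = 8.84e-08), and the median of all genes was 10.9 points. The Prl3b1 difference exceeded that of 99.3% of all genes.

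Within TET_WT, all 8 genes rose from D1 to D2, as did 95.3% of all genes. Elf5 rose most, by 25.7 ± 1.30 points (adjusted p = 2.88e-17), which exceeded 94.7% of all genes. The placental genes rose by 13.7 ± 1.27 points (Prl2c2) to 16.6 ± 1.33 points (Prl3d1), Ascl2 by 12.4 ± 0.956 and Cdx2 by 10.3 ± 0.680 points, against a median of 19.3 points. Centred on the library median, Elf5 had 5.92 ± 0.728 points and the other 7 genes −9.47 to −3.21 points. From D0 to D1 the TET_WT differences were 3.18 ± 0.680 (Cdx2) to 9.37 ± 1.30 points (Elf5), and 0 of 8 genes reached 10 points by limma, beside 13.5% of all genes. At any size, 8 of 8 passed the adjusted and the unadjusted p, as did 98.8% of all genes at the adjusted p. Without replicate 2 of D1 the Elf5 difference was 10.35 points, which calls 1 gene. Without replicate 2 of D2 the rise of Cdx2 from D1 to D2 was 9.84 points, which leaves 7 genes called. Body windows alone gave 4.42 points for Cdx2 and 3.70 points for Ascl2 in that step, and neither was then called.

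DNMT_WT started almost unmethylated, and by D1 Elf5 and the prolactin genes stood far apart in it. Elf5 had 20.9, 19.4 and 21.9% on D1, against 4.04, 4.53 and 4.45% on D0. Prl3d1 had 3.79, 3.24 and 4.10% on D1, against 1.35, 1.01 and 2.23% on D0. Prl3b1 had 3.53, 3.67 and 3.56% on D1, against 1.07, 0.962 and 1.98% on D0. The libraries of the 2 days did not overlap for any of these 3 genes, but the size of the step differed widely. Elf5 rose by 16.4 ± 1.30 points (adjusted p = 2.16e-12) and was called alone among the 8 genes, where 54% of all genes were. At any size 5 of 8 genes passed the adjusted p, beside 94.3% of all genes. They were Elf5, Ascl2 with 7.28 ± 0.956 points, Cdx2 with 4.84 ± 0.680, Tpbpb with 4.004 ± 1.62 and Tpbpa with 3.98 ± 1.37 points. Prl2c2, Prl3b1 and Prl3d1 had 2.24 ± 1.27, 2.25 ± 1.24 and 2.18 ± 1.33 points, with adjusted p of 0.0913, 0.0829 and 0.116. These SEs rest on a spread for each gene pooled over all 9 groups. In DNMT_WT the SDs on D0 and D1 were 0.540 and 0.130 points for Prl2c2, 0.557 and 0.0732 for Prl3b1 and 0.629 and 0.436 for Prl3d1. In TET_WT on D2 they were 2.55, 2.81 and 3.68 points. A missed adjusted p is therefore no evidence that these genes stayed level. The median of all genes was 10.6 points, and the Prl3d1 difference exceeded 2.12% of them.

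**Figure D3:**
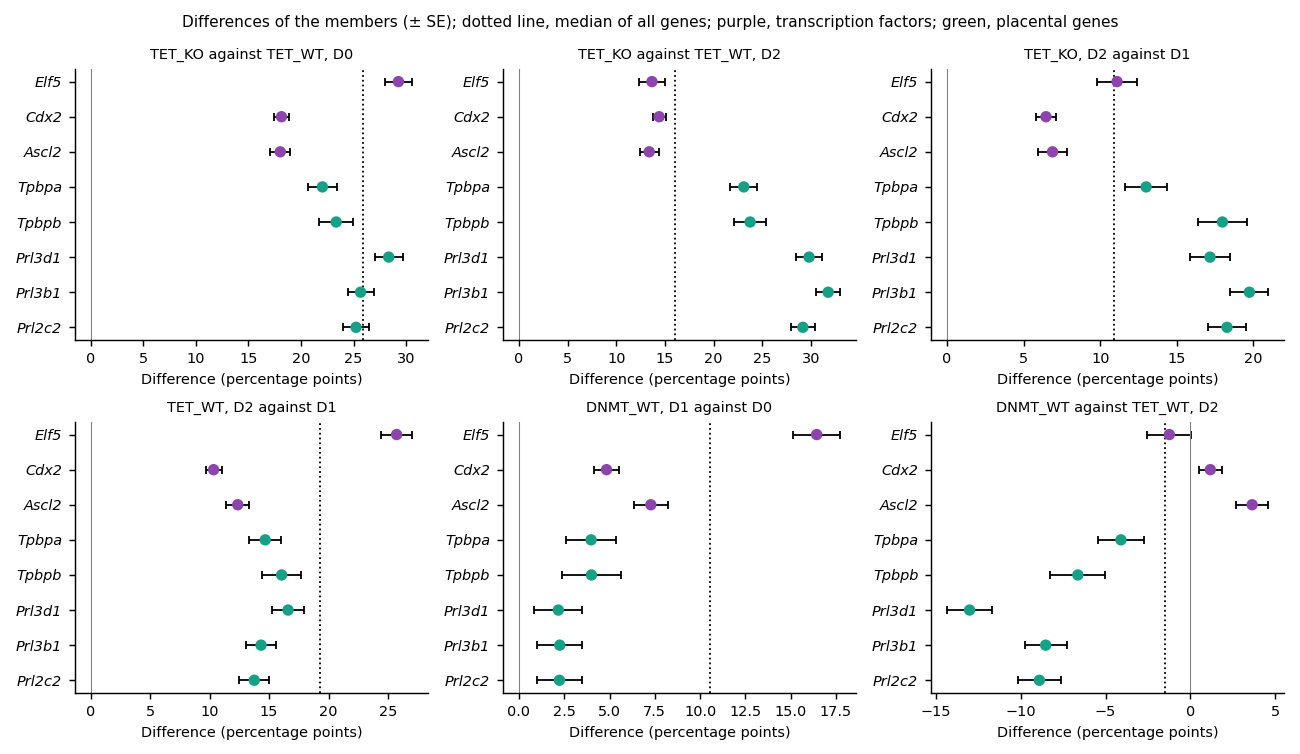
Differences in percent methylation (percentage points) of the 8 genes in 6 contrasts, with SEs from limma as bars. The dotted line is the median of all 49045 genes and the grey line is 0. Transcription factors are purple and placental genes green. On D2 the placental genes lie to the right of the median for TET_KO against TET_WT, at 23.1 to 31.8 points, and to its left for DNMT_WT against TET_WT.

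From D1 to D2 all 8 genes rose in DNMT_WT, as did 99.8% of all genes, by 16.9 ± 0.680 points for Cdx2 to 42.7 ± 1.30 points for Elf5. Ascl2 rose by 23.3 ± 0.956 points and the placental genes by 23.4 ± 1.27 (Prl2c2) to 35.9 ± 1.62 points (Tpbpb), against a median of 35.2 points. Body windows alone gave 8.03 points for Cdx2 and 6.93 points for Ascl2, and neither was then called. Relative to the library median, which moved by 35.4 points, Cdx2, Ascl2 and Prl2c2 were called lower, by −18.5 ± 0.712, −12.1 ± 0.608 and −12.0 ± 1.04 points, as were 13.7% of all genes.

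The 2 wild-type lines were compared next, with the same TET_WT libraries that TET_KO was set against. On D0, 8 of 8 genes were lower in DNMT_WT than in TET_WT at any size, and 7 of 8 by at least 10 points, beside 93.2% of all genes, with differences of −25.2 ± 1.30 points for Elf5 (adjusted p = 2.86e-17) to −11.0 ± 0.956 for Ascl2, which had −2.06 points with body windows alone. Cdx2 had −7.07 ± 0.680 points (adjusted p = 4.5e-11). On D1, 8 of 8 were lower at any size and 6 of 8 by at least 10 points, beside 84.6% of all genes, with Tpbpb at −26.5 ± 1.62 points (adjusted p = 2.2e-15), while Ascl2 and Cdx2 had −7.28 ± 0.956 and −5.41 ± 0.680 points. On D2 Prl3d1 alone was called lower, at −13.0 ± 1.33 points (adjusted p = 9.27e-09), where 4.9% of all genes were. Prl3d1 then read 29.8, 30.5 and 29.9% in DNMT_WT, against 41.2, 47.3 and 40.7% in TET_WT, with no overlap. Its SDs were 0.420 points in DNMT_WT and 3.68 points in TET_WT. An SE pooled over all 9 groups can thus be too small in contrasts with TET_WT on D2. Prl2c2 and Prl3b1 had −8.90 ± 1.27 and −8.53 ± 1.24 points on D2, Elf5 had −1.24 ± 1.30 (adjusted p = 0.445) and Ascl2 3.64 ± 0.956 points. At any size, 6 of 8 genes passed the adjusted p on D2, 5 of them with a lower and 1 with a higher value in DNMT_WT. Of all genes, 99.9% passed it at any size and in either direction on D0, 99.6% on D1 and 50.5% on D2. Without TET_WT replicate 2 of D2 the Prl3d1 difference was −10.9 points. Tpbpa then had −2.66 points and no longer passed (adjusted p = 0.104 by limma), while Cdx2 passed with 1.67 points (adjusted p = 0.0459).

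Centred values gave another picture of the wild-type lines. The medians differed by −20.5, −17.5 and −1.89 points from D0 to D2. Cdx2 was then called higher in DNMT_WT than in TET_WT on D0, by 13.4 ± 0.712 points, as were 7.81% of all genes. On D1 Cdx2 and Ascl2 were called higher, by 12.1 ± 0.712 and 10.2 ± 0.608 points, as were 8.31% of all genes. In TET_WT on D0 these genes averaged 8.37 and 12.3%, which is less than the size of that difference between medians. On D2 Prl3d1 was called lower, at −11.1 ± 0.729 points, as were 2.32% of all genes.

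The gain from D0 to D2 was larger in DNMT_WT than in TET_WT for Elf5 (24.0 ± 1.84 points, adjusted p = 6.95e-13), Tpbpa (19.3 ± 1.93 points), Tpbpb (17.5 ± 2.29 points) and Ascl2 (14.7 ± 1.35 points). These 4 of 8 genes stand beside 91.6% of all genes and a median of 18.5 points. Prl3b1, Cdx2, Prl3d1 and Prl2c2 had 9.56 ± 1.75, 8.24 ± 0.961, 7.24 ± 1.88 and 5.26 ± 1.79 points. The Prl2c2 difference exceeded 0.867% of all genes. Relative to the library median, Prl2c2, Prl3d1 and Cdx2 gained less in DNMT_WT, at −13.4 ± 1.47, −11.4 ± 1.03 and −10.4 ± 1.01 points, and 4.66% of all genes were called in that direction. Prl3b1 had 11.2 points without TET_WT replicate 2 of D2, 10.27 points without DNMT_WT replicate 2 of D2 and 10.03 points without TET_WT replicate 2 of D0, each of which brings the called genes to 5. With body windows alone, Ascl2 had 5.58 points and was not called.

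Set against each other, the order of the 2 classes depended on the line. The mean of the 5 placental genes minus that of the 3 transcription factors was 9.39 ± 0.981, 9.96 ± 0.276 and 19.0 ± 0.779 points in TET_KO from D0 to D2 (SD, n = 3 each). It was 0.724 ± 0.356, −5.86 ± 0.536 and −4.09 ± 0.350 points in DNMT_WT and 6.28 ± 0.469, 6.41 ± 0.413 and 5.34 ± 1.07 points in TET_WT. On D2 the placental mean was 70.9, 72.3 and 70.2% and the transcription factor mean 52.7, 52.9 and 50.6% in TET_KO. In DNMT_WT they were 35.5, 35.4 and 35.1% and 39.4, 39.9 and 39.0%, and in TET_WT 41.8, 47.3 and 41.6% and 37.4, 40.8 and 36.6%. Within each line the library means of the 2 classes did not overlap on D2, and in DNMT_WT the placental mean lay below that of the transcription factors. The single genes interleaved there, with Elf5 at 63.4%, Ascl2 at 31.8% and Cdx2 at 23.1%. The placental genes ran from 27.2 to 47.2%. The medians were 31.8% for the transcription factors and 31.2% for the placental genes, so the order of the means rests on Elf5. The class levels also rest on how windows are averaged, since the short cores of Cdx2 and Ascl2 count as much as long windows. Weighting windows by their overlap with the gene made the gap −0.399, −0.766 and 6.89 points in TET_KO on D0, D1 and D2. The same weighting made it −0.240, −8.23 and −12.5 points in DNMT_WT and 1.62, 1.06 and −3.13 points in TET_WT. With body windows alone the gap in DNMT_WT on D2 was 4.37 points, and averaged on the log2 odds scale it was 4.40 points, so its direction there turned under both. The placental mean lay below Elf5 alone in all 9 groups, with differences on D2 of −7.24 ± 0.593 points in TET_KO, −28.1 ± 1.05 in DNMT_WT and −21.1 ± 0.438 in TET_WT (SD, n = 3 each).

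**Figure D4:**
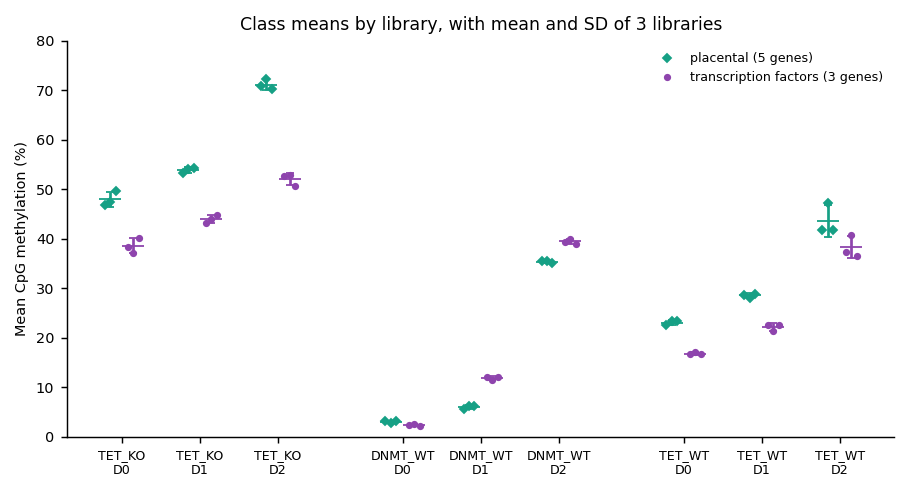
Mean CpG methylation (%) of the 5 placental genes (green diamonds) and the 3 transcription factors (purple circles) in each library, by line and day. Horizontal marks and bars are means and SDs of 3 libraries. The placental class lies above the transcription factors in all TET_KO and TET_WT libraries and below them in DNMT_WT on D1 and D2, with windows averaged without weights.

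Ranked by level on D2, Elf5 was the most and Cdx2 the least methylated of the 8 genes in each line. In TET_KO, Elf5 (78.3 ± 1.32%) was followed by Tpbpa (74.4 ± 1.77%), Prl3d1 (72.9 ± 2.86%), Prl3b1 (71.5 ± 1.37%) and Tpbpb (71.4 ± 1.18%), and from Tpbpa to Tpbpb each gene overlapped the next. Prl2c2 (65.3 ± 2.29%), Ascl2 (41.5 ± 1.51%) and Cdx2 (36.3 ± 1.14%) followed, each apart from the next. In DNMT_WT the order was Elf5 (63.4 ± 1.12%), Tpbpa (47.2 ± 1.66%), Tpbpb (41.0 ± 1.75%), Ascl2 (31.8 ± 0.798%), Prl3b1 (31.2 ± 1.72%), Prl3d1 (30.1 ± 0.420%), Prl2c2 (27.2 ± 1.29%) and Cdx2 (23.1 ± 0.934%). Here Ascl2, Prl3b1 and Prl3d1 overlapped in turn. In TET_WT, Elf5 (64.7 ± 2.90%) stood apart, the libraries of Tpbpa (51.3 ± 2.58%), Tpbpb (47.6 ± 4.57%), Prl3d1 (43.1 ± 3.68%), Prl3b1 (39.7 ± 2.81%) and Prl2c2 (36.1 ± 2.55%) overlapped from each to the next, and Ascl2 (28.2 ± 2.85%) and Cdx2 (21.9 ± 0.956%) lay apart at the bottom. On D0 the order was led by Tpbpa in both wild-type lines, with 9.57 ± 0.438% in DNMT_WT and 33.0 ± 0.952% in TET_WT, ahead of Elf5 with 4.34 ± 0.264 and 29.6 ± 0.314%. The Tpbpa means include the flank window over Gm40976, with 26.7% in DNMT_WT and 67.7% in TET_WT. The median Tpbpa window had 5.62% in DNMT_WT, against 3.63% for Elf5, and 25.8% in TET_WT, against 29.1% for Elf5.

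Because the windows of the placental genes are long, the differences were also set beside those of all windows of the same length class. The longest class has no upper bound, so lengths within it are not matched. The windows of Prl3d1, Prl3b1 and Prl2c2 run from 7932 to 23059 bp. Length classes with bounds at 1.5 and 6 kb were set after the values had been seen and were not tested. In DNMT_WT from D0 to D1, the 16 placental windows of 6 kb or longer differed by 0.974 to 4.28 points (median 2.78), and all 169135 windows of that class had a median of 5.30 points. The 16 Elf5 windows, of 1.5 to under 6 kb, differed by 10.5 to 21.0 points (median 16.9), and all 251955 windows of their class had a median of 13.2 points. The 2 Ascl2 windows of 6 kb or longer differed by 10.0 and 14.3 points, above all 16 placental windows of that class. Between TET_KO and TET_WT on D2, the long placental windows had a median difference of 29.3 points, against 23.7 points for all long windows, while the Elf5 windows had 13.6 points, against 16.04 points for their class. In TET_KO from D1 to D2 the medians were 18.6 points for the long placental windows and 13.9 points for all long windows. Between DNMT_WT and TET_WT on D2 they were −9.46 points and −5.17 points. The part that window length has in the differences between the genes was not tested.

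**Figure D5:**
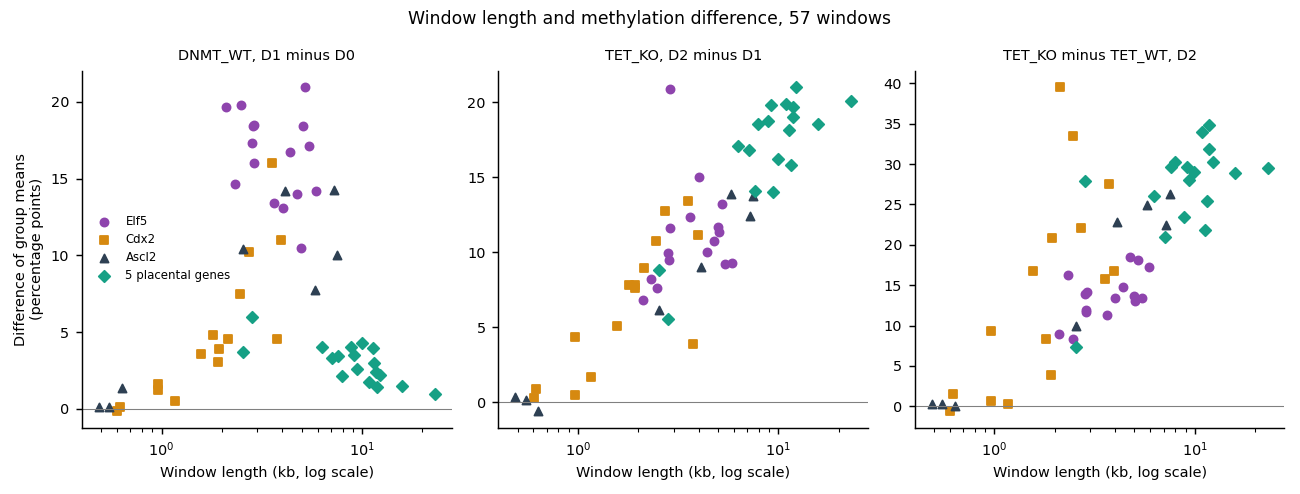
Difference of group means (percentage points) against window length (kb, log scale) for the 57 windows, in DNMT_WT D1 minus D0, TET_KO D2 minus D1 and TET_KO minus TET_WT on D2. Each point is 1 window of Elf5, Cdx2, Ascl2 or the 5 placental genes. Windows under 1.5 kb lie near 0 in most cases, and the 16 placental windows of 6 kb or longer have steps of 0.974 to 4.28 points in the left panel and larger ones in the other 2 panels, while the 2 long Ascl2 windows have 10.0 and 14.3 points in the left panel.

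Other genes of the same tissues were taken as 4 lists. Of 23 further prolactin family genes, all 23 were higher in TET_KO than in TET_WT on D2, beside 93.8% of all genes, with a median of 30.6 points, against 16.1 points for all genes, led by Prl8a8 (33.1 ± 1.38) and Prl7d1 (32.9 ± 1.16). After centring, 17 of the 23 were still called higher, beside the 5.6% of all genes given above. In DNMT_WT from D0 to D1 the family had differences of 1.74 to 7.03 points with a median of 2.70 points, against 10.6 points for all genes, and Prl had the largest. These genes lie on 1 chromosome, 9 of them share a window with another of the list, and Prl3a1 and Prl3d2 share a window with a member, so they are not independent of each other or of the members.

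The 9 placental cathepsins, proteases expressed in the mouse placenta, were all higher in TET_KO than in TET_WT on D2, beside 93.8% of all genes, with a median of 22.3 points, against 16.1 points for all genes, led by Cts8 (25.5 ± 1.31) and Ctsj (24.5 ± 1.40). In DNMT_WT from D0 to D1, 1 of 9 was called, beside 54% of all genes, with a median of 4.39 points, against 10.6 points. Of 19 other placental genes, most of them pregnancy-specific glycoproteins, all 19 were higher in TET_KO than in TET_WT on D2, again beside 93.8% of all genes, with a median of 24.1 points, led by Psg18 (33.8 ± 1.17) and Psg28 (32.9 ± 1.204). Their median in DNMT_WT from D0 to D1 was 8.07 points, and 7 of 19 were called, beside 54% of all genes.

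Of 13 further regulators of the trophoblast, 12 were called higher in TET_KO than in TET_WT on D2, near the 93.8% of all genes, with a median of 13.5 points, beside 13.4 to 14.4 points for Elf5, Cdx2 and Ascl2 and 16.1 points for all genes. Esx1 (16.9 ± 0.904) and Klf5 (16.6 ± 1.16) had the largest differences. In DNMT_WT from D0 to D1, 6 of 13 were called, beside 54% of all genes, with a median of 9.36 points, led by Ets2 (15.9 ± 1.05) and Tead4 (15.2 ± 1.16). On D2 their median level was 49.8% in TET_KO, 36.5% in DNMT_WT and 34.4% in TET_WT, against 66.3, 29.2 and 37.3% for the prolactin family in the same lines.

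Genes elsewhere in the genome had nearly the same 9 group means. Likeness was measured as the root mean square difference over the 9 group means, with genes within 1 Mb left out. It was smallest for Mrtfa (0.508 points) and Ermard (0.511 points) beside Elf5, for Irx3 (0.815 points) and Jak3 (0.830 points) beside Cdx2, and for Trp53rkb (0.524 points) and Gm48952 (0.588 points) beside Ascl2. Among the placental genes, Prl3b1 was closest to 4930431F12Rik (0.664 points) and Tas2r104 (0.731 points), and Prl2c2 to Cdh8 (0.757 points) and Mageb5 (0.763 points). Prl3d1 was closest to Gm22212 (0.826 points) and Gm7924 (0.923 points), Tpbpb to Rpl13-ps3 (0.880 points) and Gm5845 (1.02 points), and Tpbpa to Tdpoz8 (1.55 points) and Olfr347 (1.68 points). Tpbpa thus had the least close match of the 8. Between members the distance was 2.64 points for Prl3d1 and Prl3b1, 4.94 points for Cdx2 and Ascl2, and 27.01 and 31.8 points for Elf5 with Ascl2 and with Cdx2.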

How the data were processed

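Whole-genome bisulfite libraries of 3 lines on 3 days were used, with 3 libraries per group. Per the submitters' processing notes, Trim Galore 0.6.6, cutadapt 2.3 and Bismark 0.23.0 were used with GRCm38. The authors deposited window values of CpG methylation in percent, 1 column per library. Coverage, the filters and the handling of reads that map more than once are not given in the sources used here, and the depth is unknown. Percentages were used as deposited.

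A gene was the unweighted mean of the windows touching its body with 10 kb on either side, for windows with a value in all libraries. Genes and windows were each fitted with limma 3.58.1 (R 4.3.3, eBayes with trend) as 9 group means over 27 libraries, with 18 residual degrees of freedom and a median residual SD of 1.44 points for genes and 2.60 points for windows. Calls needed a Benjamini-Hochberg adjusted p under 0.05 over all features and at least 10 points. The fit was tested on simulated data.

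The members and lists were chosen with earlier results of these data known. All members and their windows could be named, the 2 genes of each list with the largest difference, and the 2 genes nearest to each member. Alternatives were the replicate block, centring on the library median, body windows alone, overlap weights, a log2 odds scale with an offset of 1, other minimum differences, only the groups compared, eBayes without trend, incomplete windows and leaving out each library. Tables and figures used Python 3.11.15, pandas 2.3.3, numpy 2.4.6, Biopython 1.88 and matplotlib 3.10.9.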

Additional observations from a re-analysis of the deposited data

Results flagged for a closer look

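The gain from D0 to D2 differed between lines, by a test of the difference itself with limma, for 5 results. Elf5 gained less in TET_KO than in TET_WT, with a difference of −15.59 points, where 43.5% of all genes were called lower. In DNMT_WT the gain was larger than in TET_WT by 24.01 points for Elf5, by 14.68 points for Ascl2, by 19.28 points for Tpbpa and by 17.52 points for Tpbpb. In that comparison 91.6% of all genes were called higher. In each case all 3 libraries per group entered. Both comparisons use the same TET_WT libraries. Relative to the library median, the Elf5 difference between TET_KO and TET_WT was −7.76 points. Between DNMT_WT and TET_WT it was 5.41 points, with 0.680 points for Tpbpa. Ascl2 and Tpbpb changed sign there, to −3.93 and −1.08 points, and none of the 5 passed 10 points. Groups hold 3 libraries, which is too few to test single libraries as outliers.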

How the results depend on the processing

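Subtracting the library median turned the sign of 68 of 112 differences. Turned values (points) are listed by comparison. For TET_KO against TET_WT on D0 they were Cdx2 −8.75, Ascl2 −8.87, Tpbpa −4.85, Tpbpb −3.55, Prl3b1 −1.23 and Prl2c2 −1.66. For TET_KO against TET_WT on D1 they were Cdx2 −8.19, Ascl2 −7.60, Tpbpa −1.70, Tpbpb −4.65, Prl3b1 −0.110 and Prl2c2 −1.82. For TET_KO against TET_WT on D2 they were Elf5 −5.39, Cdx2 −4.65 and Ascl2 −5.67. For TET_KO from D0 to D1 they were Cdx2 −4.04, Ascl2 −3.003, Tpbpa −0.918, Tpbpb −2.53, Prl3d1 −1.77, Prl3b1 −0.681 and Prl2c2 −1.31. For TET_KO from D1 to D2 they were Elf5 −1.29, Cdx2 −5.93 and Ascl2 −5.50. For TET_WT from D0 to D1 they were Cdx2 −4.61, Ascl2 −4.27, Tpbpa −4.07, Tpbpb −1.43, Prl3d1 −3.07, Prl3b1 −1.80 and Prl2c2 −1.14. For TET_WT from D1 to D2 they were Cdx2 −9.47, Ascl2 −7.44, Tpbpa −5.13, Tpbpb −3.75, Prl3d1 −3.21, Prl3b1 −5.48 and Prl2c2 −6.06. For DNMT_WT from D0 to D1 they were Cdx2 −5.96, Ascl2 −3.51, Tpbpa −6.81, Tpbpb −6.79, Prl3d1 −8.61, Prl3b1 −8.54 and Prl2c2 −8.55. For DNMT_WT from D1 to D2 they were Cdx2 −18.5, Ascl2 −12.1, Tpbpa −1.72, Prl3d1 −9.04, Prl3b1 −7.79 and Prl2c2 −12.0. For DNMT_WT against TET_WT on D0 they were Cdx2 13.4, Ascl2 9.46, Prl3d1 0.237, Prl3b1 2.41 and Prl2c2 6.34. For DNMT_WT against TET_WT on D1 they were Cdx2 12.1 and Ascl2 10.2. For DNMT_WT against TET_WT on D2 they were Elf5 0.653. For the D0 to D2 gain of TET_KO against TET_WT they were Cdx2 4.10 and Ascl2 3.20. For the D0 to D2 gain of DNMT_WT against TET_WT they were Cdx2 −10.4, Ascl2 −3.93, Tpbpb −1.08, Prl3d1 −11.4, Prl3b1 −9.05 and Prl2c2 −13.3. Genes called by limma were then 0 in TET_KO against TET_WT on D0, 0 in TET_KO against TET_WT on D1, 3 in TET_KO against TET_WT on D2, 0 in TET_KO from D1 to D2, 0 in TET_WT from D1 to D2, 0 in DNMT_WT from D0 to D1, 3 in DNMT_WT from D1 to D2 (opposite direction), 1 in DNMT_WT against TET_WT on D0 (opposite direction), 2 in DNMT_WT against TET_WT on D1 (opposite direction), 2 in the D0 to D2 gain of TET_KO against TET_WT (opposite direction) and 3 in the D0 to D2 gain of DNMT_WT against TET_WT (opposite direction). Windows called for TET_KO against TET_WT were mainly lower, with 18, 17 and 14 lower and 0, 1 and 5 higher on D0, D1 and D2. The share of all windows called after centring was not worked out, so these window counts have no background to be read against. The shares of all genes called after centring are given above for the comparisons in which members were called.

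With a minimum of 20 points the genes called were 5 in TET_KO against TET_WT on D2, 0 in TET_KO from D1 to D2, 1 in TET_WT from D1 to D2, 0 in DNMT_WT from D0 to D1, 4 in DNMT_WT against TET_WT on D0, 0 in DNMT_WT against TET_WT on D2, 0 in the D0 to D2 gain of TET_KO against TET_WT and 1 in the D0 to D2 gain of DNMT_WT against TET_WT, and 26 windows were called for TET_KO against TET_WT on D2. With no minimum they were 8 in TET_KO from D0 to D1, 8 in TET_WT from D0 to D1, 5 in DNMT_WT from D0 to D1, 5 in DNMT_WT against TET_WT on D2, 3 in the D0 to D2 gain of TET_KO against TET_WT and 8 in the D0 to D2 gain of DNMT_WT against TET_WT, the commonest direction being counted. In the direction not counted, 1 gene passed in DNMT_WT against TET_WT on D2 and 2 in the D0 to D2 gain of TET_KO against TET_WT. With no minimum, 99, 98.8, 94.3, 50.5, 83.5 and 99.5% of all genes passed in either direction, in the same order of comparisons. The share of all genes or windows called at 20 points was not worked out, so the 20-point counts have no background. Weighting windows by overlap called 2 genes in DNMT_WT from D0 to D1 and gave −0.0149 points for Prl3d1 in the D0 to D2 gain of TET_KO against TET_WT. Body windows alone took the call from 9 differences, namely 7 of Ascl2 and 2 of Cdx2. The Ascl2 values were 4.67, 4.83 and 2.66 (TET_KO against TET_WT, D0 to D2), 3.70 and 6.93 (TET_WT and DNMT_WT from D1 to D2), −2.06 (DNMT_WT against TET_WT, D0) and 5.58 (gain, DNMT_WT against TET_WT), and the Cdx2 values 4.42 and 8.03 (TET_WT and DNMT_WT from D1 to D2). Signs turned to 0.291 for Ascl2 (DNMT_WT against TET_WT, D1), 0.318 for Tpbpa (the same, D2), and 0.0898 for Cdx2 and −0.849 for Prl3d1 (gain, TET_KO against TET_WT). The log2 odds scale gave −0.0231, −0.0230 and −0.0982 for Tpbpb, Prl3d1 and Prl2c2 in that gain.

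The mean of the placental genes minus that of the transcription factors depended on how windows were averaged, and centring cannot move it. With body windows alone it was 16.9, 19.3 and 31.4 in TET_KO, −0.0372, −4.33 and 4.37 in DNMT_WT and 7.29, 9.11 and 12.2 in TET_WT (points, D0 to D2). With overlap weights it was −0.399, −0.766 and 6.89 in TET_KO, −0.240, −8.23 and −12.5 in DNMT_WT and 1.62, 1.06 and −3.13 in TET_WT (points, D0 to D2). Averaged as log2 odds and turned back into percent it was 20.3, 20.9 and 28.1 in TET_KO, 0.0255, −3.21 and 4.40 in DNMT_WT and 11.6, 13.8 and 15.9 in TET_WT (points, D0 to D2). The cores of Cdx2 and Ascl2 carry less weight, by construction, when windows are weighted by overlap.

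Leaving out 1 library at a time kept direction and call for 757 differences, turned 6, added a call to 4 and took it from 1, and the counts of genes called ranged from 0 to 1 in TET_WT from D0 to D1, from 7 to 8 in TET_WT from D1 to D2 and from 4 to 5 in the D0 to D2 gain of DNMT_WT against TET_WT, and did not move in the other 11 comparisons. The Tpbpb difference in the gain of TET_KO against TET_WT (0.421 points) was below 0 in 5 cases, between −1.195 and −0.0864 (−0.592, −0.416 and −0.573 in the others), and had 3.03 at most, and the Elf5 difference of DNMT_WT against TET_WT on D2 ranged from −2.26 to 0.422, the last without TET_WT replicate 2. A fit with the replicate number as a block kept all 112 differences and 14 counts; Elf5 for TET_KO against TET_WT on D0 was again 29.26 points. Correlations over windows of same-numbered libraries' deviations lay between −0.0549 and 0.057, and 9 of 27 libraries correlated best with their own number. Such correlations cannot show a shift of a whole library. Whether same-numbered libraries share a batch or a culture therefore remains unknown. The only-groups-compared fit, eBayes without trend and incomplete windows changed no call, where a call needs at least 10 points. Depth is unknown, and the smallest difference that could be seen in a window cannot be given from it.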
